A study of Mus musculus with 17 samples.

Results

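Erythroid lineage genes were followed in 17 mouse spleen libraries of RNA sequencing, as a list of 32 genes for haemoglobin, the red cell membrane, erythroid regulators and red cell enzymes. A member was any line of the deposited table whose gene name equalled a listed symbol, which held for 30 of the 32 genes, out of 38340 named genes. Epb42 stands in the table under its older symbol Epb4.2 and is given beside the members without being counted, and Ahsp is not analysed here. The mice were CB57BL/6NCrl by the labels and fell into 6 groups: naive (untreated, n = 3), vehicle (the jetPEI carrier according to the series' design text, n = 2), and SLR10, SLR14, poly(I:C) and pppNS with n = 3 each. The study was about activation of RIG-I, a sensor of viral RNA; SLRs are short stem-loop RNAs made to activate it, and poly(I:C) is a long duplex RNA made in the laboratory. The labels give 25 µg of RNA in 200 µl, complexed with in vivo-jetPEI at an N/P ratio of 8 and injected intravenously, in a text that names SLRs only. The amount and carrier of poly(I:C) and pppNS, the age and sex of the mice and the time of collection are not in the sources used here. Each library was taken as a separate mouse. If some were not, the tests measure only the spread between these libraries.

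The mouse spleen makes red blood cells throughout life, in the red pulp, and this activity grows under anaemia or inflammation. Progenitors become erythroblasts under erythropoietin signalling and the transcription factors GATA1, TAL1 and KLF1, which together switch on the globins, the membrane skeleton and iron uptake. Erythroblasts divide a few times, lose the nucleus, and leave as reticulocytes that still carry globin RNA. The spleen also holds circulating reticulocytes and red cells in its blood.

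Libraries held 26.5 to 42.8 M reads (megareads), 15.8 to 29.6 M of them on named genes. A single read was worth 0.0175 to 0.0431 CPM. CPM here is the deposited value, reads per gene divided by a library size normalised with edgeR by the authors. All named genes summed to 471970 to 797005 CPM by library, so equal CPM in different libraries need not be equal shares of reads. All 5 B cell and all 5 T cell markers had reads in every library. Lines without a gene name took 46.1% of the reads of pppNS replicate 3, against 28.1% to 40.4% in the other 16 libraries. The fewest reads of any member in any library were 9, for Icam4 in poly(I:C) replicate 1.

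Sequence before the start of the members was examined because GATA1 and TAL1 are themselves on the list and are known to bind together at a CTG followed, 8 letters later, by a GATA motif. RefSeq promoter sequences (GRCm38.p6) were found for 25 of the 32 listed genes, Epb42 included, and the 250 bases before the start were searched on both strands. The paired motif, CTG followed after 8 bases of any kind by AGATAA or TGATAA, was present in 6 of 25 (24% of them), against 0.54% of 27018 promoters in the table. These 6 were Gfi1b, Epb42, Ermap, Kel, Icam4 and Rhag. A GATA motif alone (GATAA or GATAG with A or T before it, which overlaps the pair) was present in 15 of 25, or 60%, against 27.1% of all promoters. The KLF motif (CCNC and then NCCC, where N is any base) was also present in 15 of 25, against 45.6% of all promoters. A match describes letters and not a bound site. Shown are 100-base stretches of Gfi1b (chr2:28622034-28622133, minus strand), Ermap (chr4:119190012-119190111, minus strand) and Kel (chr6:41704340-41704439, minus strand), chosen because they hold the pair and end before the first exon in both RefSeq and GENCODE. They read 5′ to 3′ along the gene, and the capitals mark the paired motif, which in Ermap lies on the other strand.
Gfi1b: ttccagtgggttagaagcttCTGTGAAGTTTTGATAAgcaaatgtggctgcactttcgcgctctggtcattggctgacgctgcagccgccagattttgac
Ermap: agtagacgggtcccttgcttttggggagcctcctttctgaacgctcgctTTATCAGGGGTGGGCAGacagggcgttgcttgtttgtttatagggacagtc
Kel: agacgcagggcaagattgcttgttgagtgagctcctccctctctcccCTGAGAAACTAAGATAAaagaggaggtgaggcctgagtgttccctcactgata

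Members were among the genes that differed most between mice of the same group. Slc4a1, the anion exchanger of the red cell membrane, stood at 49.1, 2132 and 56.4 CPM in SLR14 replicates 1 to 3, and values below follow replicate order in the same way. With poly(I:C) it was 7.90, 3458 and 1488 CPM. It was 757, 906 and 1654 CPM with pppNS, 58.9, 42.8 and 38.4 with SLR10, 62.0 and 151 with vehicle, and 341, 167 and 296 in naive mice. So SLR14 replicate 2 and poly(I:C) replicates 2 and 3 lay above every naive mouse while their group mates lay below every naive mouse. The same 3 libraries stood apart in the summed level of 16 cell-cycle genes, at 3426, 4881 and 2081 CPM against 572, 538 and 492 CPM in their group mates. They also had the lowest sums of the 5 B cell markers of all 17 libraries, at 1055, 963 and 1094 CPM. The part of either in the values of the members was not tested. The residual SD of Slc4a1 around its group means, 2.44 on the log2 scale, ranked 1 of 14010 genes tested. Among the 10 genes with the largest residual SD 5 were members, and among the 100 with the largest 21 were. Over the 30 members the median residual SD was 1.60 (range 0.868 to 2.44), against a median of 0.287 over all genes tested. RNA from whole spleen cannot tell more erythroid cells from more erythroid RNA per cell.

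**Figure D1:**
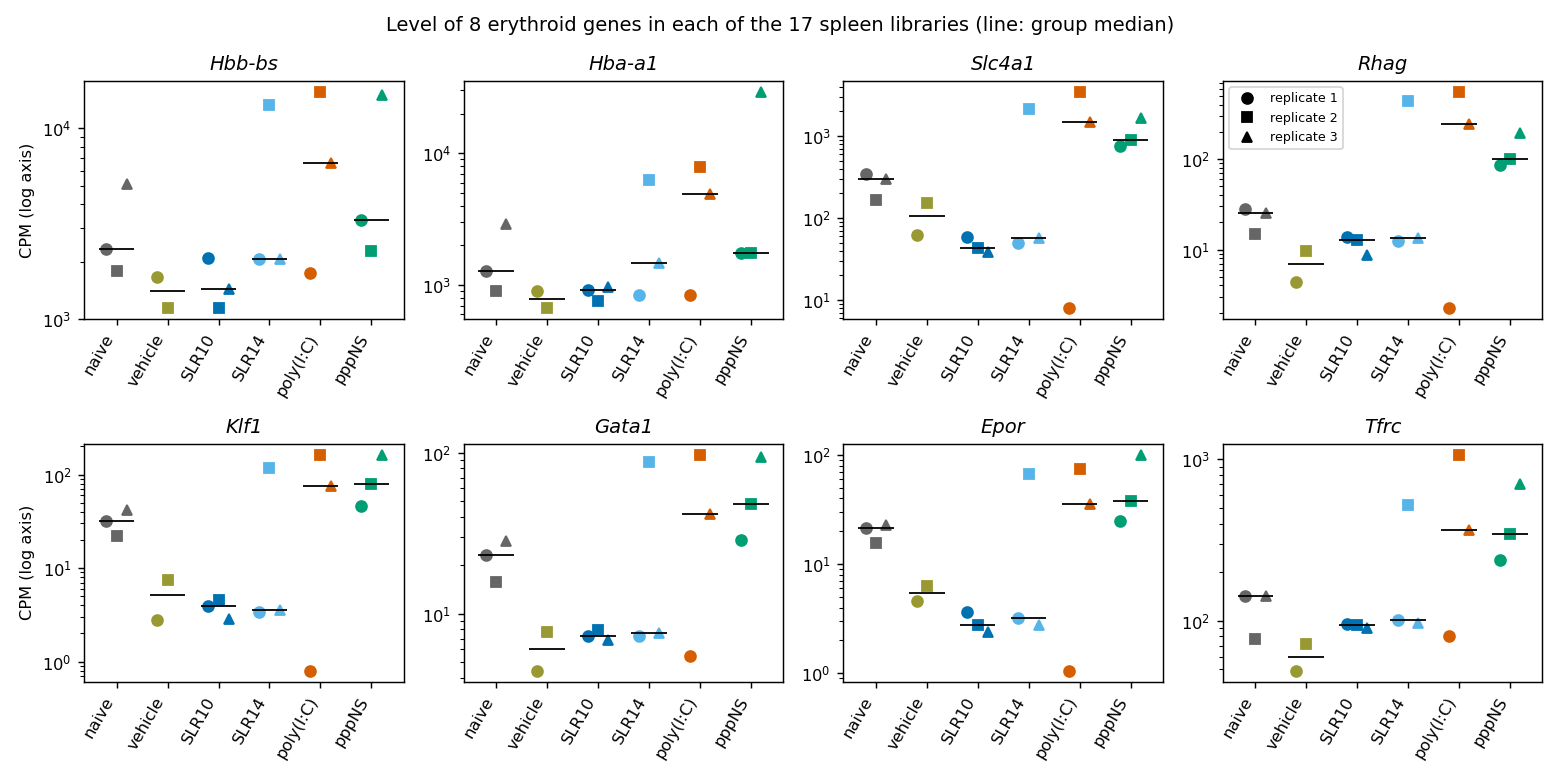
Level in CPM (log axis) of 8 erythroid genes across the 17 libraries. Columns are groups, with a marker shape for the replicate number and a horizontal line for the group median. SLR14 replicate 2 and poly(I:C) replicates 2 and 3 lie apart from their group mates in each panel, as for Slc4a1 at 2132, 3458 and 1488 CPM against 49.1, 56.4 and 7.90 CPM.

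The adult globin genes lie in pairs of near-identical copies, Hbb-bs (chr7:103826534-103828096) and Hbb-bt (chr7:103812524-103813996) for beta globin and Hba-a1 (chr11:32283511-32284465) and Hba-a2 (chr11:32296489-32297298) for alpha globin (GRCm38, GENCODE vM21). How reads that match both copies were counted is not in the sources used here. Both the globin levels and the split within a pair are therefore uncertain. Hbb-bs was at 2339, 1789 and 5128 CPM in naive mice, 1659 and 1142 with vehicle, and 2102, 1137 and 1430.0 with SLR10. It was at 2072, 13308 and 2064 CPM with SLR14, 1743, 15504 and 6612 with poly(I:C), and 3313, 2266 and 14998 with pppNS. Beta globin was therefore high in the same SLR14 and poly(I:C) mice as Slc4a1, but among the pppNS mice only replicate 3 lay above all naive mice. Hba-a1 stood at 1279, 905 and 2928 CPM in naive mice, 901 and 665 with vehicle, 911, 757 and 973 with SLR10, and 841, 6311 and 1463 with SLR14. In the poly(I:C) mice it was 835, 7903 and 4915 CPM, and in the pppNS mice 1755, 1745 and 29261 CPM. The highest Hba-a1 value of the series was thus in pppNS replicate 3, with poly(I:C) replicate 2 next.

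The 4 globin genes together took 8.62% of named reads in pppNS replicate 3 (95% Wilson interval 8.61% to 8.63%, counting error only). They took 3.98% in poly(I:C) replicate 2, 3.62% in SLR14 replicate 2 and 2.43% in poly(I:C) replicate 3. In the other libraries the share ran from 0.406% in SLR10 replicate 2 to 2.20% in naive replicate 3. Per kilobase of exon, Hbb-bs had the highest median level of the members over the 17 libraries, 2737 CPM, followed by Hba-a1 at 1575, Hba-a2 at 1105 and Hbb-bt at 867. The next members were the carbonic anhydrases Car2 and Car1 at 69.4 and 50.6 CPM per kilobase and Slc4a1 at 34.2. Globin RNA was thus the most abundant erythroid RNA of the list in the typical library.

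Each membrane and skeleton gene had a larger ratio of highest to lowest value over the 17 libraries than any globin. Rhag, an Rh-associated glycoprotein that carries ammonia or gas across the membrane, was at 27.8, 14.9 and 25.5 CPM in naive mice, 4.34 and 9.63 with vehicle, and 13.8, 12.7 and 8.79 with SLR10. With SLR14 it was 12.3, 444 and 13.4 CPM, with poly(I:C) 2.23, 554 and 243, and with pppNS 85.3, 100.4 and 195. All pppNS values lay above all naive values, which lay above all SLR10 and vehicle values. Rhd, the gene of the Rh blood group protein, had the widest range of the members, from 0.452 to 318 CPM, a ratio of 704. It was at 36.6, 25.1 and 58.0 CPM in naive mice, 5.42 and 13.1 with vehicle, 6.45, 3.99 and 3.85 with SLR10, and 4.71, 166 and 5.39 with SLR14. The poly(I:C) values were 0.452, 277 and 114 CPM and the pppNS values 69.3, 94.3 and 318 CPM. The lowest of these values rests on 16 reads. Sptb (beta spectrin), Ank1 (ankyrin, which ties spectrin to the anion exchanger) and Add2 (beta adducin, which caps the skeleton's actin) had ratios of highest to lowest of 288, 229 and 353. Epb4.2, the gene of a protein that links the anion exchanger to ankyrin, had a ratio of 488. Its pppNS values of 73.5, 78.5 and 80.3 CPM lay closer together than those of any globin.

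**Figure D2:**
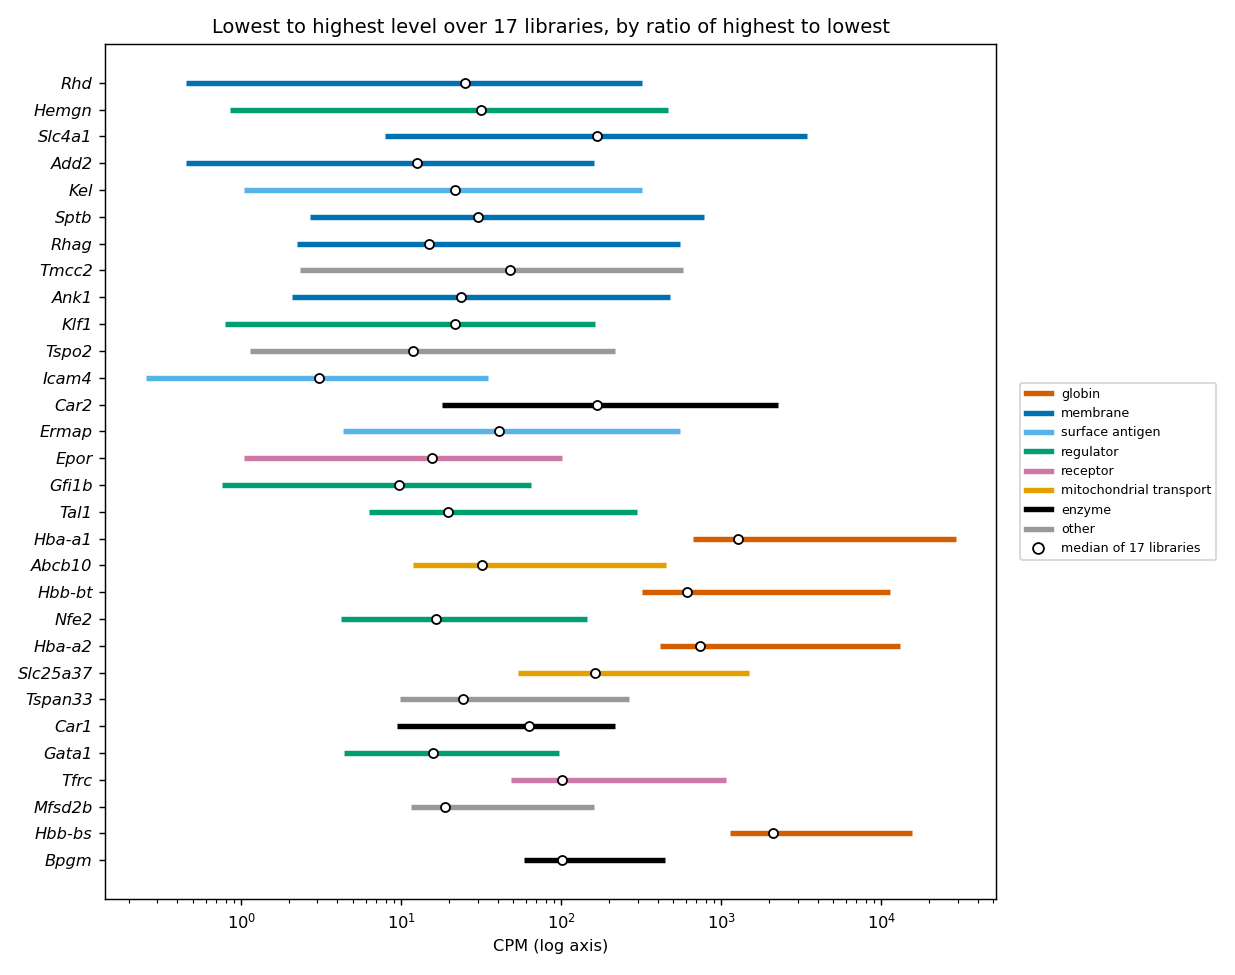
Lowest to highest CPM (log axis) over the 17 libraries for each of the 30 members, sorted by the ratio of highest to lowest and coloured by role, with the median as an open point. The ratio runs from 7.59 for Bpgm to 704 for Rhd, and the 4 globin genes lie furthest to the right with ratios of 13.6 to 44.0.

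The surface antigen genes were high in the same libraries. Kel, which encodes the Kell blood group metallopeptidase, was at 40.2, 21.6 and 41.5 CPM in naive mice, 6.11 and 14.9 with vehicle, and 6.09, 4.57 and 3.42 with SLR10. It was at 5.36, 182 and 5.04 CPM with SLR14, 1.04, 318 and 109 with poly(I:C), and 76.5, 104 and 205 with pppNS. Ermap, an immunoglobulin-like protein of erythroblasts, and Icam4, an adhesion protein that carries a blood group, had ratios of highest to lowest of 127 and 138. Icam4 was the lowest member by level, with a median of 3.06 CPM, so its smallest values carry the most counting error.

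The erythroid regulators are the factors that direct these genes. Klf1 (chr8:84901928-84905291), whose product switches on beta globin and many membrane genes, was at 31.7, 21.8 and 42.0 CPM in naive mice, 2.82 and 7.41 with vehicle, and 3.92, 4.51 and 2.84 with SLR10. The SLR14 values were 3.41, 117 and 3.58 CPM, the poly(I:C) values 0.790, 161 and 75.9, and the pppNS values 46.4, 78.4 and 164. Each pppNS mouse lay above each naive mouse, and each naive mouse above each vehicle and SLR10 mouse. Gata1, the central erythroid factor, was at 23.2, 15.7 and 28.3 CPM in naive mice, 4.40 and 7.71 with vehicle, 7.30, 7.86 and 6.88 with SLR10, and 7.23, 87.7 and 7.58 with SLR14. It was at 5.48, 97.3 and 41.8 CPM with poly(I:C) and at 28.7, 47.9 and 94.6 with pppNS. Gata1 had a ratio of highest to lowest of 22.1, against 207 for Klf1, and megakaryocytes and mast cells also express it.

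Tal1 encodes a factor known to bind with GATA1 at paired motifs of the kind searched above, where binding was not measured. Tal1 was at 31.6, 19.7 and 24.6 CPM in naive mice, 8.66 and 14.5 with vehicle, and 8.80, 9.64 and 7.42 with SLR10. It was at 9.03, 152 and 9.05 CPM with SLR14, 6.29, 299.5 and 127 with poly(I:C), and 69.6, 110.5 and 144 with pppNS. Here too naive mice stood between the pppNS mice and the vehicle and SLR10 mice without overlap. Nfe2, a factor of globin expression that platelets' precursors need as well, was at 22.6, 16.4 and 30.1 CPM in naive mice and 7.92 and 13.1 with vehicle. With SLR10 it was 6.56, 5.80 and 6.63 CPM, with SLR14 6.50, 63.1 and 5.69, with poly(I:C) 4.18, 96.0 and 43.9, and with pppNS 33.3, 43.0 and 145. The highest value of Nfe2 was in pppNS replicate 3, while that of Tal1 was in poly(I:C) replicate 2. Hemgn, a nuclear protein of blood precursors, was at 52.5, 31.8 and 58.2 CPM in naive mice, 9.48 and 26.2 with vehicle, 8.21, 5.24 and 3.96 with SLR10, and 6.81, 285 and 7.20 with SLR14. It reached 0.847, 467 and 168 CPM with poly(I:C) and 113, 154 and 194 with pppNS. Gfi1b, a repressor needed for erythroid and megakaryocyte maturation, was highest in pppNS replicate 3 (65.0 CPM) and lowest in poly(I:C) replicate 1 (0.762 CPM).

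The receptors differed in how low they went. Epor, the erythropoietin receptor, was at 21.7, 15.7 and 22.7 CPM in naive mice, 4.63 and 6.26 with vehicle, and 3.67, 2.77 and 2.38 with SLR10. It was at 3.21, 67.1 and 2.76 CPM with SLR14, 1.04, 74.3 and 35.9 with poly(I:C), and 24.7, 38.3 and 101 with pppNS. Tfrc, the transferrin receptor, brings iron into erythroblasts and also into other dividing cells. It was at 141, 77.3 and 142 CPM in naive mice, 48.7 and 71.3 with vehicle, 95.2, 94.6 and 90.5 with SLR10, and 101, 520.4 and 97.3 with SLR14. With poly(I:C) it was 80.9, 1070.2 and 364 CPM and with pppNS 238, 344 and 699. Unlike Epor, Tfrc in CPM was higher in every SLR10 mouse than in either vehicle mouse. That order depended on the scaling of the libraries. Tfrc took 1850 of 18.2 M named reads in vehicle replicate 1 and 3590 of 23.8 M in vehicle replicate 2. In SLR10 replicates 1 to 3 it took 2595 of 18.1 M, 3248 of 23.2 M and 2514 of 18.9 M, each a smaller share than in vehicle replicate 2.

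Transporters and enzymes ended the list. Slc25a37 (mitoferrin, which carries iron into mitochondria) and Abcb10 (a transporter of the mitochondrial inner membrane) had ratios of highest to lowest of 28.0 and 38.5. Bpgm, which makes the bisphosphoglycerate that lowers haemoglobin's oxygen affinity, had the smallest range of all members. It was at 140.2, 76.1 and 131 CPM in naive mice, 67.6 and 66.8 with vehicle, 66.8, 58.6 and 69.1 with SLR10, 83.2, 355 and 101 with SLR14, 69.3, 445 and 361 with poly(I:C), and 168, 105 and 272 with pppNS. Car1, a carbonic anhydrase of red cells and their precursors, was at 76.1, 63.2 and 113 CPM in naive mice, 9.40 and 18.6 with vehicle, and 21.6, 32.8 and 18.7 with SLR10. Its SLR14 values were 18.8, 216 and 23.4 CPM, its poly(I:C) values 12.2, 207 and 124, and its pppNS values 77.0, 138 and 214. Car1 therefore overlapped between pppNS and naive mice, unlike Klf1. Mfsd2b, which exports the lipid signal sphingosine phosphate from red cells and platelets, was at 31.0, 18.9 and 29.3 CPM in naive mice, 14.5 and 18.1 with vehicle, and 18.5, 16.1 and 14.1 with SLR10. It was at 16.8, 105 and 13.8 CPM with SLR14, 11.6, 161 and 74.2 with poly(I:C), and 50.03, 67.0 and 125 with pppNS. Tspo2 (an erythroid protein of cholesterol transport), Tmcc2 and the tetraspanin gene Tspan33 had ratios of 191, 246 and 27.0.

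Globins and the other 26 members did not keep a fixed proportion from library to library. The mean log2 level of the 4 globins was 13.96 in pppNS replicate 3 and 12.70 in poly(I:C) replicate 2, while that of the other members was 7.73 and 8.23. In poly(I:C) replicate 1 the other members had their lowest mean, 2.24, but the globins stood at 9.58, within the 9.24 to 9.80 of the vehicle and SLR10 libraries. There were 221 Hbb-bs reads per Slc4a1 read in that library, 26.6 to 37.3 with SLR10 and 2.50 in pppNS replicate 2. Naive replicate 3 had 17.3, against 6.85 and 10.7 in the other naive mice. Alpha globin reads per beta globin read were 1.60 in pppNS replicate 3 and 0.531 to 0.911 in the other 16 libraries. That same library had 1.32 Hbb-bs reads per Hbb-bt read, where the others had 2.17 to 4.22, and 0.302 Ank1 reads per Rhd read, where the others had 0.513 to 4.63. These ratios were singled out after their values were seen. The share of reads without a gene name was also highest in that library (46.1%), and its part in the ratios was not tested.

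**Figure D3:**
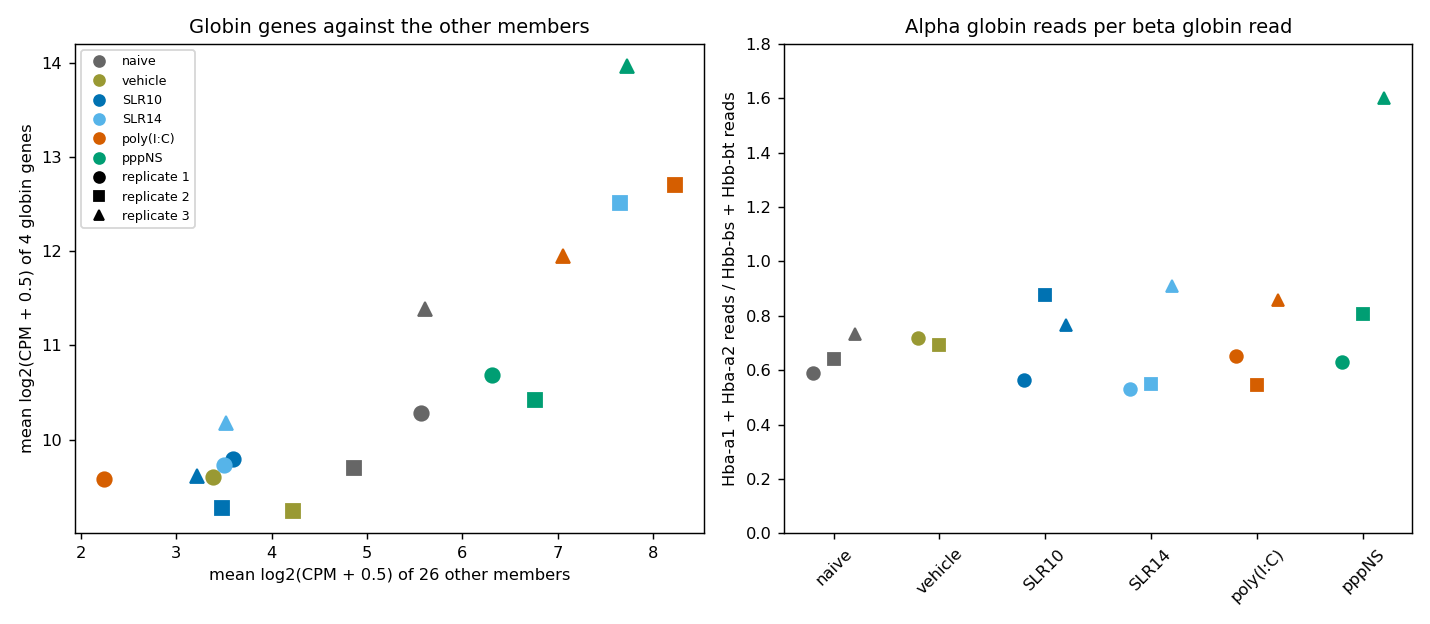
Left, mean log2(CPM + 0.5) of the 4 globin genes against that of the 26 other members, 1 point per library; right, reads of both alpha globin genes divided by reads of both beta globin genes in each library by group. The pppNS replicate 3 library lies at 13.96 for globins and 7.73 for the others, and its alpha to beta ratio of 1.60 stands above the 0.531 to 0.911 of the rest.

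In SLR10 against pppNS (n = 3 against 3) 17 of 30 members were called lower, among them all regulators of the list and no globin. Klf1 averaged 3.76 ± 0.847 CPM with SLR10 and 96.2 ± 60.7 CPM with pppNS (mean ± SD), a log2 difference of -4.33 ± 1.505 (SE, limma adjusted p = 0.0345). Epor went from 54.7 ± 40.7 with pppNS to 2.94 ± 0.662 CPM with SLR10, and Gata1 from 57.1 ± 33.9 to 7.35 ± 0.495 CPM. In limma on log2(CPM + 0.5), fitted over all 17 libraries with Benjamini-Hochberg adjustment and a threshold of 0.05, 17 of 30 members were called lower and 0 higher. Over all 14010 genes 19.9% were called lower in that comparison and 20.4% higher. All 30 members were lower in every SLR10 library than in every pppNS library, as were 28.5% of all genes. The median log2 difference of the members was -3.41 (range -4.64 to -1.38), and that of all genes -0.04.

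By role, all 3 surface antigens and all 6 regulators passed in SLR10 against pppNS, and 0 of 4 globins did. Kel fell by 4.54 and Icam4 by 3.71 on the log2 scale, with limma adjusted p of 0.0355 and 0.0144. Tal1 differed by -3.52 ± 1.17, Nfe2 by -3.13 ± 1.00, Hemgn by -4.63 ± 1.72 and Gfi1b by -3.31 ± 1.15 (limma adjusted p 0.0237 to 0.0446). Slc25a37, Tspan33, Car2, Tspo2 and Mfsd2b passed too, as did Epor and, of the 5 counted membrane genes beside Slc4a1, only Rhd and Add2. Slc4a1 itself (-4.49 ± 1.77), Tfrc (-2.04 ± 0.78) and Car1 (-2.45 ± 0.96) had limma adjusted p of 0.0569, 0.0517 and 0.0546. The globins ran from -2.39 for Hbb-bt to -1.68 for Hbb-bs, with limma adjusted p of 0.0769 to 0.139. The count of 17 was 0 without pppNS replicate 3, 4 without pppNS replicate 2 and 1 without any single one of the SLR10 replicates, where 40.2%, 36.8% and 27.8% to 29.3% of all genes were called. It was 26 in edgeR (40.9% of all genes) and 29 in DESeq2 (46.5% of the genes to which it gave an adjusted p). Other lists moved with these members in the same comparison, where 19.9% of all genes were called lower. Called lower were 9 of 16 cell-cycle genes, 3 of 5 T cell markers and 4 of 7 red pulp macrophage markers. Their part in the result was not tested.

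**Figure D4:**
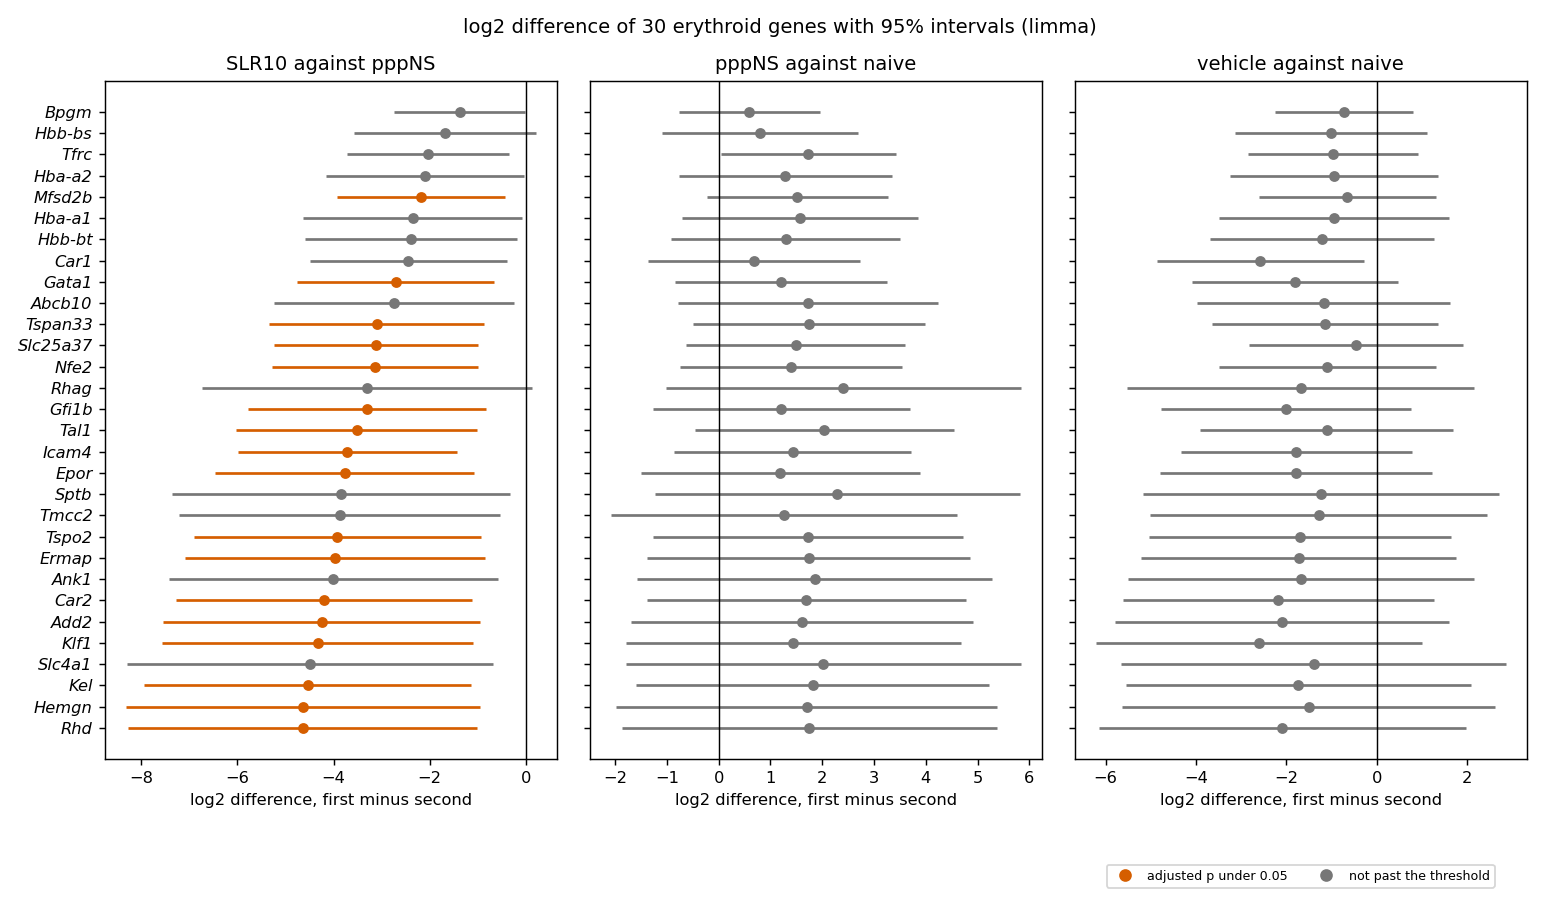
log2 difference (first group minus second) of each of the 30 members with its 95% interval from limma, in 3 comparisons, with genes past an adjusted p of 0.05 in orange. In SLR10 against pppNS 17 intervals are orange and all points lie below 0; in the other panels none is orange, with all points above 0 for pppNS against naive and below 0 for vehicle against naive.

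In pppNS against naive mice (n = 3 against 3) no member passed the test, although most did not overlap between the groups. Of the 30 members 22 were higher in every pppNS library than in every naive library, as were 16.0% of all genes. Their median log2 difference was 1.59 (range 0.59 to 2.41), against 0.04 over all genes. Called in limma were 0 of 30 members, where 10.9% of all genes were called and 6.06% called higher; 1 member had an unadjusted p under 0.05, and edgeR and DESeq2 called 0. The median 95% interval reached 2.50 to either side on the log2 scale, so differences of several fold could go uncalled. Its width comes from the spread pooled over all groups, the SLR14 and poly(I:C) mice included. It does not describe the spread of the pppNS and naive mice alone. Fitting only these 6 libraries called 6 members higher, and 2.04% of all genes in either direction.

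The comparison of pppNS with vehicle (n = 3 against 2) shares the pppNS libraries with the one before. All 30 members were higher in every pppNS library than in either vehicle library, as were 22.9% of all genes. The members' median was 3.18 on the log2 scale, against 0.01 over all genes. In limma 0 of 30 were called, where 4.3% of all genes were called and 2.96% called higher; 16 members had an unadjusted p under 0.05. Tfrc had the smallest limma adjusted p, 0.107, with a log2 difference of 2.70 ± 0.88. edgeR called 0 members and DESeq2 called 12, all higher with pppNS, and 9.99% of the genes to which it gave an adjusted p. Neutrophil genes moved as well, with 2 of 7 called higher by limma and sums of 304, 202 and 1002 CPM in pppNS replicates 1 to 3 against 123 and 116 with vehicle. B cell markers, of which 0 of 5 were called by limma, summed to 1438, 1316 and 2295 CPM with pppNS and 1697 and 1681 with vehicle. All named genes together summed to 540337, 516774 and 797005 CPM in pppNS replicates 1 to 3, and to 478123 and 471970 with vehicle. Sums in CPM, highest in pppNS replicate 3, are therefore not shares of reads. The part of the neutrophil or B cell genes in the result was not tested.

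Vehicle and naive mice (n = 2 against 3) differ by the carrier and by any injection given with it, which cannot be told apart here. Klf1, at 2.82 and 7.41 CPM against 21.8 to 42.0 CPM, and Car1, at 9.40 and 18.6 against 63.2 to 113 CPM, did not overlap between the groups. In 28 of 30 members both vehicle libraries lay below all naive libraries, as in 27.6% of all genes. Log2 differences ran from -2.61 to -0.46, with a median of -1.46. limma called 0 of 30 members, where 0.05% of all genes were called and 0.0357% called lower, and 1 member, Car1, had an unadjusted p under 0.05 (adjusted p = 0.529). edgeR and DESeq2 each called 0.

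No member passed the test in SLR10 against vehicle (n = 3 against 2). The members went both ways, with 9 above and 21 below 0 and a median log2 difference of -0.32. limma, edgeR and DESeq2 each called 0 of 30, and 0 had an unadjusted p under 0.05 in limma, where 39.4% of all genes were called. The median 95% interval reached 2.80 to either side, with the spread pooled over all groups and not over these mice alone. Fitting only these 5 libraries called 3 members higher and 7 lower, and 70.7% of all genes.

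For SLR14 and poly(I:C) the difference from vehicle depended on single mice, and both share the vehicle libraries with SLR10 and pppNS. The median log2 difference of the members was 1.13 with SLR14, and -0.25 without SLR14 replicate 2. It was 2.39 in edgeR, 2.42 in DESeq2 and 0.015 with library weights. limma called 0 of 30 members with SLR14, 0 had an unadjusted p under 0.05, and edgeR called 0, where limma called 38.7% of all genes. DESeq2 called 5 members, and 42.0% of the genes to which it gave an adjusted p. With poly(I:C) the median was 2.04 (3.30 in edgeR and 3.37 in DESeq2), 0.97 without poly(I:C) replicate 2 and 3.75 without poly(I:C) replicate 1. Tfrc was the member called higher, 1 of 30 where 18.6% of all genes were called higher. It differed by 2.41 ± 0.88 on the log2 scale (limma adjusted p = 0.0449), and the call was lost without either vehicle library, without poly(I:C) replicate 2 or without replicate 3 (limma adjusted p 0.0999 to 0.212), and when libraries were scaled by their named genes without the members (limma adjusted p = 0.0868). edgeR called 3 members and 35.8% of all genes, and DESeq2 22 members and 41.4% of the genes to which it gave an adjusted p. Without poly(I:C) replicate 1, limma called 27 members and 37.8% of all genes.

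SLR14 and SLR10 were also compared directly (n = 3 against 3). The median log2 difference of the members was 1.43, higher with SLR14, and 0.08 without SLR14 replicate 2. It was 2.81 in edgeR, 2.86 in DESeq2 and 0.37 with library weights. limma, edgeR and DESeq2 each called 0 of 30, 0 had an unadjusted p under 0.05, and limma called 0% of all genes. In 4 members every SLR14 library lay above every SLR10 library, as in 4.54% of all genes. The median 95% interval reached 2.50 to either side, so the size of any difference is poorly bounded.

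Other erythroid genes were read from lists drawn up beside the members. Of 35 tested genes of a wider erythroid list 17 were called lower and 1 higher in SLR10 against pppNS, with a median log2 difference of -2.20. Among all genes 19.9% were called lower and 20.4% higher there. Ldb1, which bridges the GATA1 and TAL1 complex, differed by -1.03 ± 0.17 (limma adjusted p = 0.000506), Bnip3l, needed to clear mitochondria from reticulocytes, by -1.92 ± 0.53 (limma adjusted p = 0.0116) and Kcnn4, a potassium channel of red cells, by -2.53 ± 0.73 (limma adjusted p = 0.015). In pppNS against naive only Gypc (glycophorin C) of the 35 was called, higher by 1.84 ± 0.39 (limma adjusted p = 0.00751). Of all genes tested 10.9% were called in that comparison. Gypc was at 104, 104 and 235 CPM with pppNS and 41.4, 30.6 and 42.2 CPM in naive mice, with no overlap. Unlike the members, it was also above all naive values with SLR10, at 122, 125 and 116 CPM. It was at 119, 284 and 107 CPM with SLR14, 162, 379 and 237 with poly(I:C), and 23.3 and 27.3 with vehicle.

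Of the 8 haem synthesis enzymes 7 were called lower in SLR10 against pppNS and 0 in pppNS against naive. Among all genes 19.9% were called lower in the first and 10.9% were called in the second. Fech, which inserts iron into the ring, differed by -3.30 ± 1.01 in the first (limma adjusted p = 0.0195). Alas2, the erythroid enzyme of the first step, was chosen after its values were seen. It was at 303, 174 and 337 CPM in naive mice, 167.6, 1196 and 207 with SLR14, 125, 1519 and 902 with poly(I:C), and 444, 348 and 1417 with pppNS. The highest value was in poly(I:C) replicate 2, followed by pppNS replicate 3 and SLR14 replicate 2. Embryonic globins summed to at most 1.81 CPM in any library, in pppNS replicate 3, and the 5 genes had 0 reads in SLR10 replicates 1 and 2 and SLR14 replicate 3. Summed over the list, 3 reads would be 0.110, 0.0874 and 0.129 CPM in those libraries.

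Of 12 genes of progenitors and stress signals, 3 were called higher and 0 lower in pppNS against naive, and 5 higher and 2 lower in SLR10 against pppNS. Among all genes 6.06% were called higher in the first comparison, and 20.4% higher and 19.9% lower in the second. Kit, the stem cell factor receptor of early erythroid progenitors, was named after its values were seen and lay between 17 and 28.2 CPM in all 17 libraries. Gdf15, a cytokine that erythroblasts and stressed tissues make, was at 13.1, 11.5 and 24.6 CPM with pppNS, 1.00, 1.15 and 1.17 CPM in naive mice, and at most 4.54 CPM in every other library. It was 3.31 ± 0.29 higher on the log2 scale in pppNS than in naive mice (limma adjusted p = 8.81e-06). With SLR14 and poly(I:C), Gdf15 lay between 2.53 and 4.54 CPM in every library. These include SLR14 replicate 2 (3.52 CPM), poly(I:C) replicate 2 (2.53 CPM) and poly(I:C) replicate 3, where the members were high. Cish and Pim1, targets of STAT5 downstream of the erythropoietin receptor and of many cytokines, were 1.64 ± 0.19 and 1.42 ± 0.26 higher in pppNS than naive mice (limma adjusted p 9.13e-05 and 0.00318). Between SLR10 and pppNS Gdf15 had the direction of the members, at -2.27 ± 0.29 on the log2 scale (limma adjusted p = 6.34e-05). Cish ran opposite to the members, at 66.3, 68.4 and 67.5 CPM with SLR10 and 17.6, 27.1 and 16.6 CPM with pppNS (log2 difference 1.73 ± 0.19, limma adjusted p = 2.49e-05).

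Cell-cycle genes and markers of other cell types were summed in each library. The summed level of 16 cell-cycle genes was 3426 CPM at its highest with SLR14 and 538 at its lowest, 4881 and 492 with poly(I:C), 1440 to 3127 with pppNS, 535 to 597 with SLR10, 472 to 553 with vehicle and 808 to 943 in naive mice. Bub1, Ccna2 and Ccnb1, which run mitosis, had the smallest adjusted p of that list in SLR10 against pppNS (limma, 0.0161 to 0.0223). T cell markers summed to 132 to 142 CPM with SLR10 and 188 to 245 with pppNS, and Cd3g, Cd3e and Cd3d were called lower with SLR10. B cell markers summed to 1435 to 1568 CPM with SLR10 and 1316 to 2295 with pppNS, and 0 of 5 were called by limma. The 8 megakaryocyte and platelet genes summed to 118 to 267 CPM over all libraries, and 0 of 8 were called in SLR10 against pppNS. Stem and progenitor genes (5) had 1 called higher and 2 lower there, neutrophil genes (7) 0, and red pulp macrophage genes (7) 4 lower. Among all genes 20.4% were called higher and 19.9% lower in that comparison. Slc40a1, the iron exporter of red pulp macrophages, was at 91.4, 132 and 102 CPM with pppNS, 19.6, 19.0 and 15.5 with SLR10, and 254 to 387 in naive mice. In the SLR14 mice it was at 15.5, 28.1 and 23.4 CPM, all below the naive values. Slc40a1 did not stand for its list in pppNS against naive. There 1 of the 7 red pulp macrophage genes was called higher and 1 lower, where 10.9% of all genes were called. The median log2 difference of the 7 was -0.08. Spic, the gene called higher, averaged 131 CPM with pppNS and 68.6 CPM in naive mice (limma adjusted p = 0.0298).

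Outside the list, the genes most like the mean of the members over the 17 libraries included Dhrs11, Ctse, Slc43a1, Slc38a5, Mgst3, Slc25a21, Slc6a9 and Prc1, with Pearson coefficients of 0.990 to 0.996 on log2(CPM + 0.5). Among them are amino acid carriers (Slc43a1, Slc38a5, Slc6a9) and a protein of the dividing spindle (Prc1). In all, 252 of 13980 other tested genes had a coefficient above 0.95. Of the members 24 of 30 exceeded 0.95 against the mean of the other 29, and the other 6 were the 4 globins (0.833 to 0.913), Bpgm (0.910) and Tfrc (0.929). The genes that ran most against the members were Lmbrd1, Adat1, Usp3, Trib2 and Eif4a2, with coefficients of -0.919 to -0.884. Libraries of a group share treatment, and all genes of a library share its scaling, so the coefficients describe these 17 libraries only.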

How the data were processed

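RNA of 17 mouse spleens was measured by RNA-seq, from stranded mRNA libraries made of 500 ng of total RNA, per the labels. The submitters' processing notes name TopHat2 2.0.6, SAMtools 1.4, HTSeq and edgeR, and the builds GRCm38 and mm10, without their roles. The annotation version and strand setting are not given in the sources used here. The deposited table holds a normalised signal per gene, called CPM by the authors. All values were whole multiples (within 0.01 reads) of 1 step per library, so whole reads were recovered from the deposited values. Of 39184 lines, 5 had no gene name, 699 an unmatched name, 27 a name turned into a number, and 113 repeated a name; all these were left out.

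Values were tested as log2(CPM + 0.5) with limma 3.58.1 (R 4.3.3, trend) in 1 fit of 17 libraries and 6 groups. The spread was pooled over all 6 groups, so intervals and calls in each comparison also carry the spread of groups outside it. A gene needed 1 CPM or more in 2 or more libraries, which 14010 did, with Benjamini-Hochberg adjustment and a threshold of 0.05. Alternatives were edgeR 4.0.16 and DESeq2 1.42.0 run with whole reads, other filters, pseudocounts, scalings, library weights, a replicate block and leaving out each library in turn. Shares called by DESeq2 leave out genes to which it gave no adjusted p, and a member without one counts as not called. The fit was also run on simulated data in which every gene had the same preset noise. The larger spread of the members was not simulated, so that run does not tell how often members would be called. Members and lists were chosen with earlier results of these data known. Named were all members past the threshold, a set of members picked for their roles, up to 3 genes of each other list by smallest adjusted p in pppNS against naive and SLR10 against pppNS, and the 10 most and 5 least alike other genes, of which some are not reported here. Intervals of shares cover counting error only.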

Additional observations from a re-analysis of the deposited data

How the results depend on the processing

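The count of members past the threshold depended on the test and on single libraries; the cause was not tested. In SLR10 against pppNS (17) it was 5 without a filter on low values, 26 when scaled by named genes without members, 26 in edgeR, 29 in DESeq2, 26 with only the groups compared and 28 with library weights. In poly(I:C) against vehicle (1) the same 6 settings gave 0, 0, 3, 22, 0 and 23. DESeq2 called 5 in SLR14 against vehicle and 12 in pppNS against vehicle, where limma called 0. Fitting only the groups compared called 10 in SLR10 against vehicle and 6 in pppNS against naive, and library weights called 1 in SLR10 against vehicle, 25 in pppNS against vehicle, 9 in vehicle against naive and 24 in pppNS against naive, where the main counts were 0. Leaving out 1 library gave 0 to 17 in SLR10 against pppNS and 0 to 27 in poly(I:C) against vehicle. The median log2 difference reversed only in SLR14 against vehicle, to -0.25 without SLR14 replicate 2 (1.85 without SLR14 replicate 1). That median was 2.39 in edgeR, 2.42 in DESeq2 and 0.015 with library weights. Scaling by named genes without members moved the median of all genes by -0.54 to 0.10 on the log2 scale, and the members' median kept its sign in all 8 comparisons. With the replicate block 22 members were called in SLR10 against pppNS and 1 in poly(I:C) against vehicle, and 0 in the other 6 comparisons. Deviations of libraries with the same number had a median correlation of 0.03 over 40 pairs (range -0.52 to 0.80). For different numbers it was -0.03 over 80 pairs (range -0.88 to 0.72), so the numbers were not taken as a pairing. Whether some libraries shared a batch or day was not tested. Libraries left with 1 vehicle mouse were assumed to vary like the other groups. Members with few reads, down to 9, carry the most counting error.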
